A study of Mus musculus with 2 samples.

Results

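The genes of glycolysis and of the hypoxia response were measured in mouse peritoneal macrophages that lacked Lgmn or were wild type. The group holds 38 genes named by symbol for their function, of 15605 genes listed in either library. It consists of glucose and lactate transporters, the enzymes that turn glucose into pyruvate and lactate, the hypoxia-inducible factor with its hydroxylases, and known hypoxia targets. All 38 genes were listed in both libraries. A minimum of 50 estimated counts in whichever library held more was met by 36 of them, and Slc2a3 and Pfkm fell short of it.

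Glycolysis splits glucose into pyruvate in the cytosol, and lactate dehydrogenase and the lactate exporters allow it to run without respiration. Inflammatory macrophages are known for using it heavily. Hypoxia-inducible factor 1 is a transcription factor made of an oxygen-labile subunit, Hif1a, and a constant partner, Arnt. Prolyl hydroxylases mark Hif1a for destruction when oxygen is present, and at low oxygen the factor switches on many glycolytic genes together with genes for mitophagy, collagen modification and vessel tone.

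The samples were lgmn-/- and wild type peritoneal macrophages of C57BL/6 mice aged 6 to 8 weeks, each cultured for 4 days beside EO771, a carcinoma line from the mouse mammary gland. Lgmn encodes legumain, a lysosomal cysteine protease. There was 1 library of each genotype, so the differences below were not checked against replicates and carry no p-value. How the allele was made, how many mice gave cells, and whether a membrane kept the cell types apart are not given in the sources used here. An uncultured or unstimulated sample was not analysed here.

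The knockout library held 11740202 estimated counts and the wild type library 11885784. Lgmn itself had 426 estimated counts in the knockout library and 23550 in the wild type library, which matches the labels. All 10 macrophage markers examined were present, among them Adgre1 at 111 FPKM in the knockout library and 67.3 in the wild type library, and Cd68 at 3756 and 5173 FPKM in the same order of libraries. FPKM counts fragments relative to transcript length and sequencing depth, so it allows levels of different genes to be compared. In bulk RNA, fewer cells of a type and less RNA per cell cannot be told apart.

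Each ratio divides the estimated count of the knockout library by that of the wild type library, after scaling between them and with 1 scaled count added to both. Its 95% interval is an exact binomial interval that covers counting error only. Genes were called higher or lower when the ratio passed 2-fold and the higher library held at least 50 counts. Ratios of genes in these libraries followed transcript length, so many values are also given on the log2 scale with the trend on length over all genes subtracted, called length-adjusted.

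The group as a whole differed little between the libraries. Of the 36 members with enough counts, 1 was at least 2-fold higher in the knockout library, the glucose transporter gene Slc2a6, or 2.78%, against 6.07% of all 9498 genes examined. Members lower there by 2-fold or more numbered 2, the stress gene Ddit4 and the vasodilator peptide gene Adm, or 5.56%, against 1.74% of all genes. The other 33 members lay between. With the length trend removed, 1 member was at least 2-fold higher, against 2.14% of all genes, and 0 were at least 2-fold lower, against 1.9%. Within 1.5-fold lay 31 of the 36 members, or 86.1%, and 77.2% of all genes. With the length trend removed these shares were 83.3% of the members and 85.9% of all genes. At 1.5-fold, 2 members were higher, against 16.5% of all genes, and 3 were lower, against 6.39%. With the length trend removed the members past 1.5-fold were 2 higher (Slc2a6 and Pfkfb4), against 7.74% of all genes, and 4 lower (Slc2a1, Ddit4, Mxi1 and Adm), against 6.33%. The median log2 ratio of the members was -0.14, and that of all genes was -0.00035. Adjusted for length, the medians were -0.17 and -0.011. After that adjustment 25 of the 36 members lay below 0, and 4856 of all 9498 genes did. The 38 members together took 2.66% of all estimated counts in the knockout library and 2.89% in the wild type library.

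**Figure D1:**
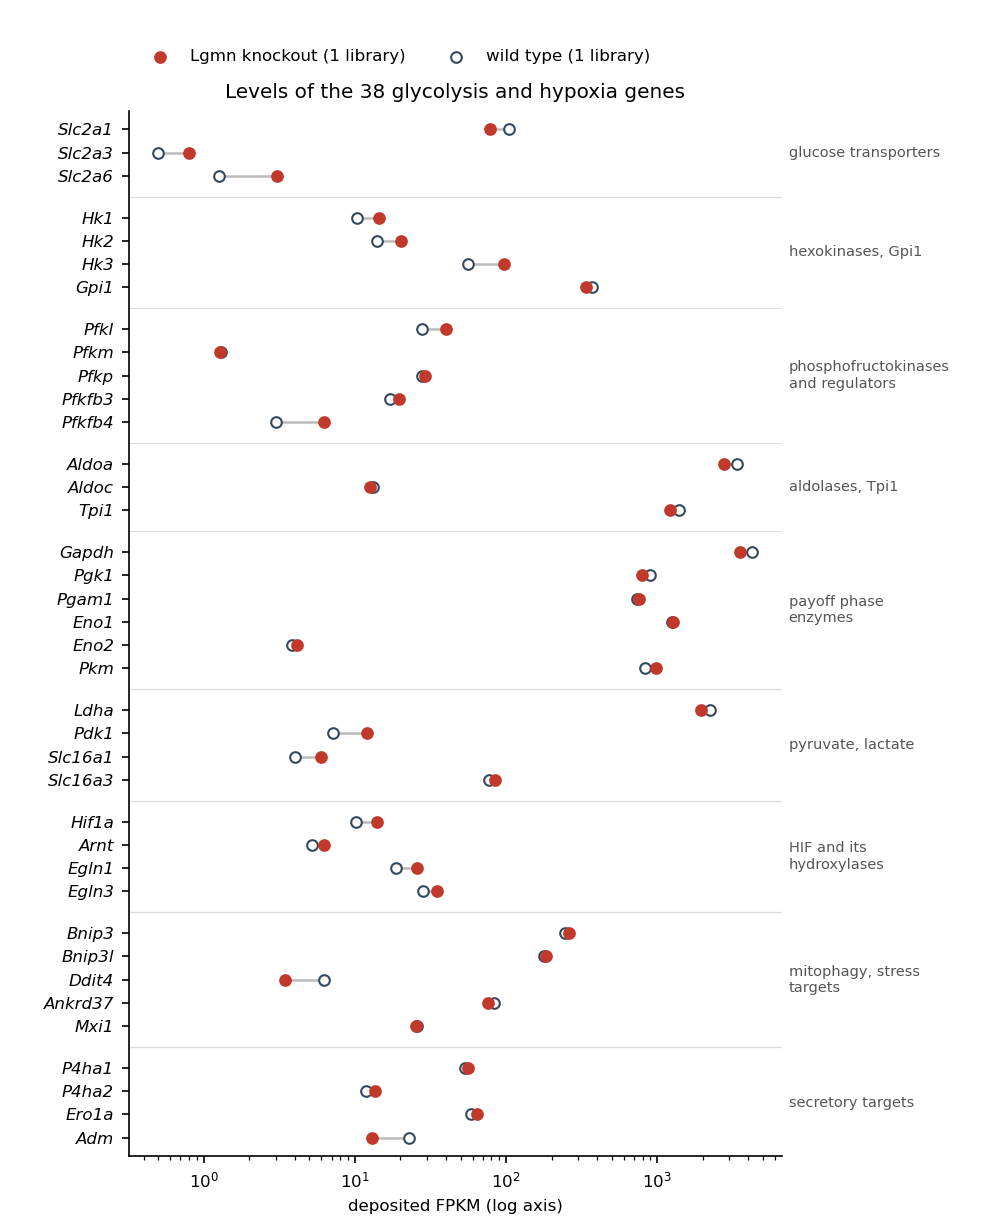
Deposited FPKM of the 38 members on a log axis, with the knockout library as filled red points and the wild type library as open points, 1 library each, grouped by role. Levels span from under 1 FPKM (Slc2a3) to 3547 FPKM in the knockout library and 4269 FPKM in the wild type library (Gapdh), and within most rows the points lie close together.

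The order of levels within the group was nearly the same in the libraries, with a Spearman rho of 0.985 over the 38 genes, which share the libraries and are not independent replicates. The enzymes from aldolase to lactate dehydrogenase formed the top of that order. The 8 highest members were Gapdh, Aldoa, Ldha, Eno1, Tpi1, Pkm, Pgk1 and Pgam1, from 762 to 3547 FPKM in the knockout library and from 737 to 4269 FPKM in the wild type library. Gapdh ranked 22nd among all genes listed in the knockout library and 19th in the wild type library. The enzymes that commit glucose to the pathway stood far lower, between 1.28 and 96.2 FPKM in the knockout library and between 1.29 and 55.6 FPKM in the wild type library for the 3 hexokinases and 3 phosphofructokinases.

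Transcript length separated the members' ratios. All 11 members with transcripts under 2000 bases had a ratio below 1, with a median log2 ratio of -0.45, while the median of all 3056 genes of that length was -0.28. Of the 16 members with transcripts of 3000 bases or more, 10 lay above 1, with a median of 0.22 against 0.34 for all 4195 such genes. Of the 9 members between these lengths, 3 lay above 1, with a median of -0.10. Across the 36 members the log2 ratio and transcript length had a Spearman rho of 0.637, and across all 9498 genes 0.609, which describes genes of 1 pair of libraries. After the trend was removed, rho over the members was 0.021. With 1 library of each genotype, the length trend and the genotype cannot be told apart.

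**Figure D2:**
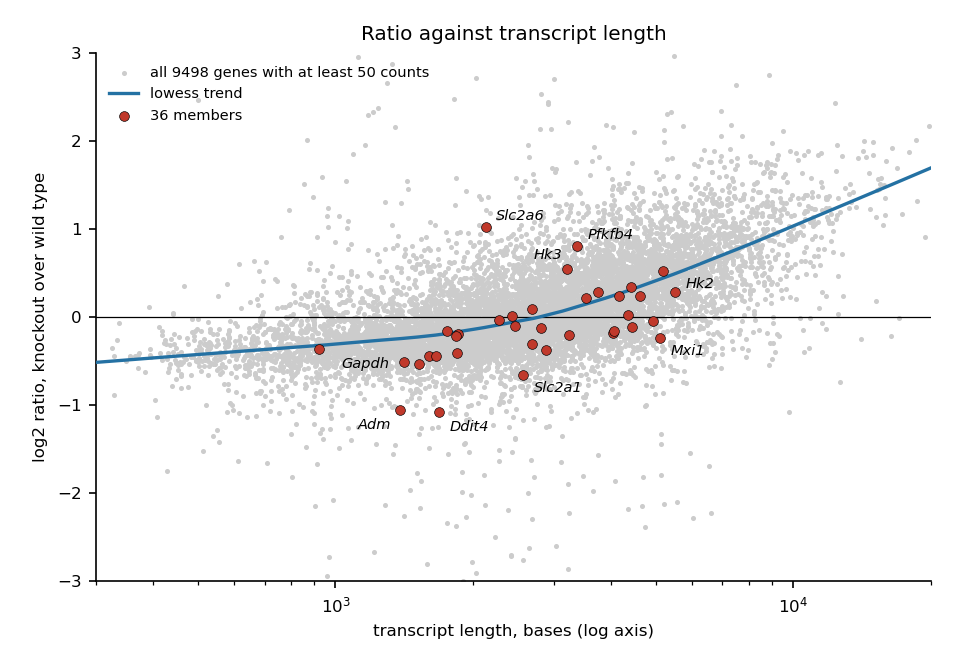
Log2 ratio of knockout over wild type against transcript length (log axis) for 9498 genes in grey and the 36 members with enough counts in red, with the lowess trend in blue; 18 genes lie outside the axes. The members with short transcripts, such as Gapdh, sit below 0 and those with long transcripts mostly above it, while Slc2a6, Pfkfb4 and Hk3 lie above the trend and Slc2a1, Adm, Ddit4 and Mxi1 below it.

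Promoters of the members past 2-fold are shown because hypoxia-inducible factor recognises a short core, written ACGTG or GCGTG, together with that of Gapdh, the most abundant member. Each line gives the 250 bases before the start that the RefSeq promoter table on GRCm38.p6 uses for the gene, 5′ to 3′ on the gene's strand, with each match to ACGTG or GCGTG on either strand in capitals. The Slc2a6 window is chr2:27027999-27028248 on the minus strand, and that of Ddit4 is chr10:59951771-59952020 on the minus strand. The Adm window is chr7:110627407-110627656 on the plus strand, and that of Gapdh is chr6:125165774-125166023 on the minus strand. The Gapdh window precedes a start inside the gene, whose longest annotated transcripts begin further upstream at position 125166467.
Slc2a6: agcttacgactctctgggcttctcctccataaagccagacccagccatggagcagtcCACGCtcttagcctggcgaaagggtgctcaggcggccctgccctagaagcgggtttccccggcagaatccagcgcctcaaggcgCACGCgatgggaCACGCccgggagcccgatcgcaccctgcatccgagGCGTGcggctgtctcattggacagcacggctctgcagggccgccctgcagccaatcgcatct
Ddit4: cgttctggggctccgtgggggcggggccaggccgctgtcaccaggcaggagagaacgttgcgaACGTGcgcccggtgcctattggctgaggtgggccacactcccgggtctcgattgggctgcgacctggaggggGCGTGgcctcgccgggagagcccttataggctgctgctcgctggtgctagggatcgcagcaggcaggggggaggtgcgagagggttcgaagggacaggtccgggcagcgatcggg
Adm: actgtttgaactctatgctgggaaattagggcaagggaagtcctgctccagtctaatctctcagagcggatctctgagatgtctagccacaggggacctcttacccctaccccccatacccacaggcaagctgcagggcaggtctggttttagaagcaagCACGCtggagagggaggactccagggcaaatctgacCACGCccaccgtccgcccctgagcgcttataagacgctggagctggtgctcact
Gapdh: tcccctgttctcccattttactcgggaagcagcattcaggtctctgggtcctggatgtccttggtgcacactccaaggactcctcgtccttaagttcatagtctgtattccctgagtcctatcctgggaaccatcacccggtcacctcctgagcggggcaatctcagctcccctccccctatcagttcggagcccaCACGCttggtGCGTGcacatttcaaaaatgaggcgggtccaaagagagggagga
The Slc2a6 window holds 4 matches to GCGTG and 0 to ACGTG, and those of Adm and Gapdh hold 2 and 0. The Ddit4 window holds 1 of each. The promoter table matched 36 of the 38 members, all but Slc2a3 and Bnip3l. A match to either core was present for 33 of those 36 genes, or 91.7%, counting any annotated start of a gene. The share was 41.5% of all 27025 genes in the table and 62.9% of the 7684 genes that also had at least 50 counts here. Known hypoxia targets were chosen as members, so a high share may follow from the choice of list. Genes with more annotated starts have more chances of a match, and these shares are not matched for the number of starts. ACGTG was present for 61.1% of the members, 18.5% of all genes and 26.5% of those with enough counts. GCGTG was present for 66.7% of the members, 30.9% of all genes and 51.0% of those with enough counts. Matches that overlapped on opposite strands were each counted. Such a match describes the sequence and is not a binding site, and the 3 members without one were Tpi1, Gpi1 and Eno2.

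Glucose enters macrophages through facilitative transporters, and the main one here was lower in the knockout library. Slc2a1, which encodes GLUT1, had 2379 estimated counts and 77.8 FPKM in the knockout library, against 3233 counts and 104 FPKM in the wild type library. Its ratio was 0.631 (95% interval 0.599 to 0.666), below that of every other member but Ddit4 and Adm. On the log2 scale this was -0.66, and -0.62 when adjusted for length. The adjusted value lay at percentile 5.43 of all genes examined. Slc2a6, which encodes GLUT6, a transporter of intracellular membranes, had 77 counts and 3.04 FPKM in the knockout library and 32 counts and 1.25 FPKM in the wild type library. Its ratio of 2.04 has a wide interval, from 1.35 to 3.22, so its place beyond 2-fold is not settled at this depth. Slc2a6 reached the minimum count only in the knockout library, where it is high. Slc2a3, which encodes the high-affinity transporter GLUT3, had only 38 counts in the knockout library and 24 in the wild type library. Slc2a1 made up 95.3% of the summed FPKM of these 3 genes in the knockout library and 98.3% in the wild type library. The share of Slc2a6 was 3.73% and 1.18% in the same order.

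Hexokinases trap glucose by phosphorylation, and all 3 had ratios above 1 before adjustment for length. Hk3, the isoform typical of myeloid cells, had 3656 counts and 96.2 FPKM in the knockout library, against 2159 counts and 55.6 FPKM in the wild type library. Its ratio was 1.45 (1.38 to 1.53), which on the log2 scale is 0.54, or 0.46 adjusted for length. Hk2, the inducible isoform that binds mitochondria, had 1330 counts in the knockout library and 937 in the wild type library, and Hk1, the widely expressed one, had 714 and 521. Their log2 ratios of 0.28 and 0.23 became -0.21 and -0.03 with the length trend removed, so among the hexokinases Hk3 alone stayed above 0 on that adjustment. Hk3 made up 73.6% of the hexokinase FPKM in the knockout library and 69.6% in the wild type library. Gpi1, which converts glucose 6-phosphate to fructose 6-phosphate, went the other way, with 11592 counts in the knockout library and 12932 in the wild type library and a ratio of 0.769 (0.750 to 0.789). On the log2 scale this was -0.38, or -0.40 adjusted for length.

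Phosphofructokinase is the main control point of the pathway, and its isoforms differed in proportion. Pfkl, the liver-type subunit, had 39.8 FPKM in the knockout library and 27.6 in the wild type library, and Pfkp, the platelet-type subunit, 29.1 and 28.0 FPKM. Pfkl thus made up 56.7% of the summed FPKM of the 3 subunits in the knockout library, against 48.6% in the wild type library, and Pfkp 41.5% against 49.1%. The ratio was 1.22 for Pfkl (1.13 to 1.31) and 0.880 for Pfkp (0.816 to 0.949), and the transcripts are of similar length, at 3741 and 4033 bases. Pfkp overlaps its neighbour Pitrm1, with 748 identical bases, and without a stated strand their reads cannot be told apart. Pfkm, the muscle-type subunit, was scarce, with 44 counts in the knockout library and 45 in the wild type library.

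The bifunctional enzymes Pfkfb3 and Pfkfb4 set the level of fructose 2,6-bisphosphate, the activator of phosphofructokinase. Pfkfb4 had 250 counts and 6.21 FPKM in the knockout library, against 122 counts and 2.99 FPKM in the wild type library. Its ratio was 1.75 (1.41 to 2.20), or 0.81 on the log2 scale and 0.69 adjusted for length. Pfkfb3, the main inducible form, had 1148 counts in the knockout library and 1020 in the wild type library, with a ratio of 0.966 (0.887 to 1.05). Its length-adjusted log2 ratio was -0.45, so Pfkfb3 and Pfkfb4 lay on opposite sides of the trend. The share of Pfkfb4 in their summed FPKM was 24.2% in the knockout library and 14.9% in the wild type library.

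The splitting of fructose 1,6-bisphosphate and the interconversion of its products showed lower values in the knockout library. Aldoa, the main aldolase, had 49473 counts and 2754 FPKM in the knockout library and 61643 counts and 3385 FPKM in the wild type library, a ratio of 0.689 (0.681 to 0.697). Tpi1, triose phosphate isomerase, had 22779 counts in the knockout library and 26705 in the wild type library, a ratio of 0.732 (0.719 to 0.745). Adjusting for length brought their log2 ratios of -0.54 and -0.45 to -0.31 and -0.23. Aldoc, a minor aldolase isoform with 402 counts in the knockout library and 428 in the wild type library, had a ratio of 0.806 (0.702 to 0.926).

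Among the enzymes of the payoff phase, which yields ATP and pyruvate, the early steps lay lower than the late ones. Gapdh had 58823 counts and 3547 FPKM in the knockout library and 71937 counts and 4269 FPKM in the wild type library, with a ratio of 0.702 (0.694 to 0.709). Its log2 ratio lay between -0.51 and -0.27 under every scaling and with the length trend removed. Pgk1, the first ATP-forming enzyme, had 17215 counts in the knockout library and 19695 in the wild type library, a ratio of 0.750 (0.735 to 0.766). The later steps stood closer to 1. Pgam1, a phosphoglycerate mutase, had 16721 and 16388 counts in the knockout and wild type libraries, and Eno1, the main enolase, had 27467 and 27406. Their ratios were 0.875 and 0.86, with length-adjusted log2 ratios of -0.02 and -0.04, and both lay above 0 when scaled by library totals or taken as FPKM. Pkm, pyruvate kinase, had 28281 counts in the knockout library and 24163 in the wild type library, and its log2 ratio was 0.01. Eno2, the neuronal-type enolase and a known hypoxia target, was low, at 4.15 FPKM in the knockout library and 3.83 in the wild type library.

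Pyruvate is turned into lactate by Ldha or kept out of mitochondrial oxidation by Pdk1, a kinase that inactivates pyruvate dehydrogenase. Ldha had 37935 counts and 1936 FPKM in the knockout library, against 44424 counts and 2236 FPKM in the wild type library. Its ratio was 0.733 (0.723 to 0.743), close to those of Aldoa, Tpi1, Gapdh and Pgk1, and its length-adjusted log2 ratio was -0.24. Pdk1 had 752 counts in the knockout library and 451 in the wild type library, a ratio of 1.43 (1.27 to 1.61). Its transcript has 5202 bases, so the log2 value of 0.52 came to 0.07 when adjusted for length. The lactate transporters Slc16a1 and Slc16a3, which encode MCT1 and MCT4, had ratios of 1.26 and 0.931 and length-adjusted log2 ratios of 0.03 and -0.05. Slc16a3, the form linked to lactate export and to hypoxia, made up 93.4% of their summed FPKM in the knockout library and 95.1% in the wild type library.

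**Figure D3:**
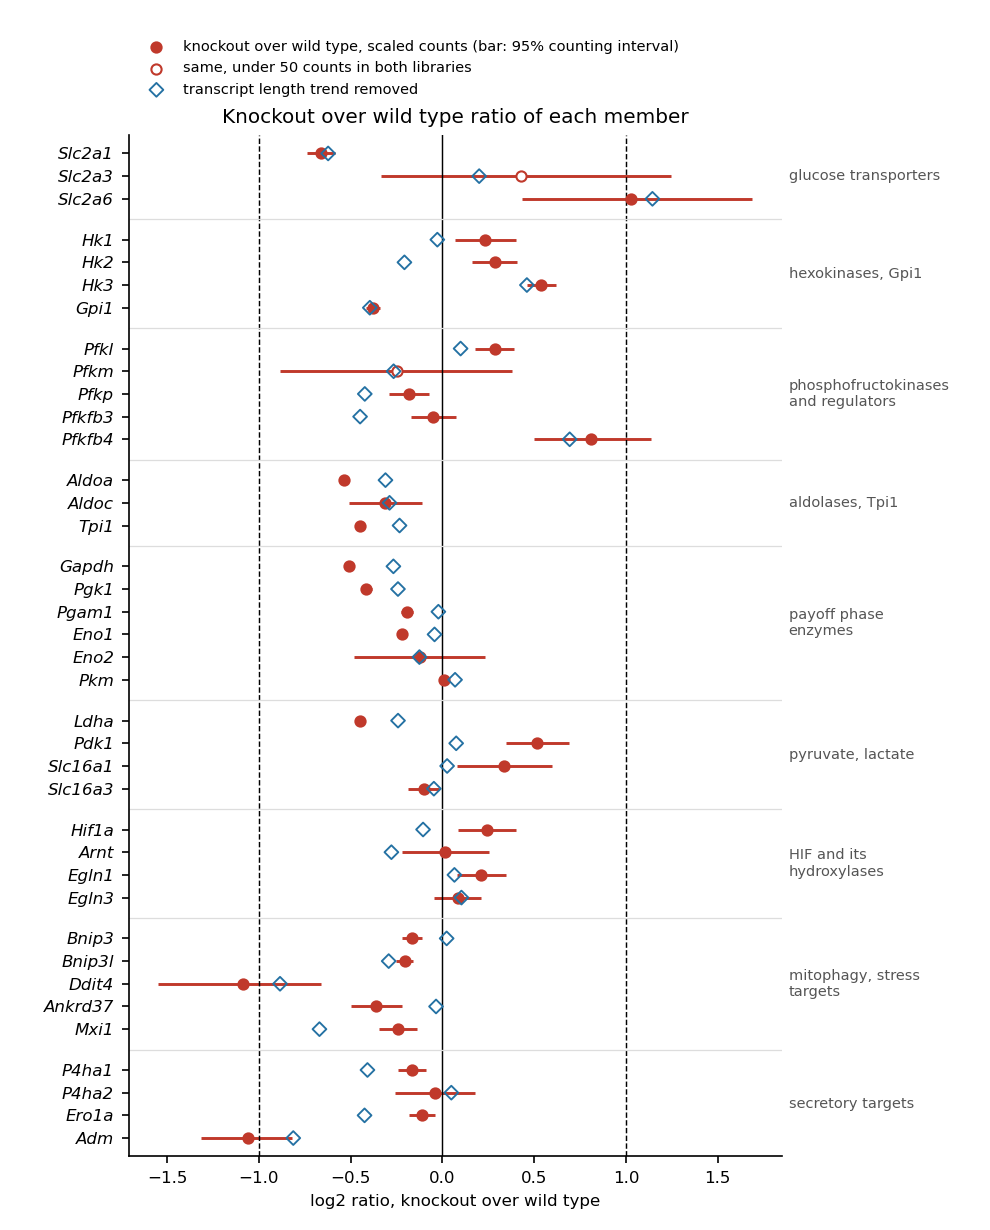
Log2 ratio of knockout over wild type for each member, 1 library each, with filled red points and bars for the ratio and its 95% counting interval, open red points for the 2 members under 50 counts and blue diamonds for length-adjusted values; dashed lines mark 2-fold. Slc2a6 lies beyond the upper line and Ddit4 and Adm beyond the lower one, each with an interval that crosses it, and the remaining members lie between.

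The hypoxia-inducible factor and its hydroxylases differed little. Hif1a had 781 counts in the knockout library and 567 in the wild type library, a ratio of 1.18 (1.06 to 1.32), and a length-adjusted log2 ratio of -0.11. Arnt, its partner, had 323 and 274 counts in the knockout and wild type libraries, with an interval of 0.858 to 1.19. Egln1, the main oxygen-sensing prolyl hydroxylase, had a ratio of 1.16 (1.06 to 1.27). Egln3, a hydroxylase that is itself a hypoxia target, had 1126 counts in the knockout library and 912 in the wild type library, and a log2 ratio of 0.08. The length-adjusted log2 ratios of the 4 genes lay between -0.28 and 0.10. Messenger RNA does not report the stability of the Hif1a protein, which was not measured.

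Targets with roles in mitophagy and stress included a member past 2-fold. Ddit4, also called REDD1, an inhibitor of mTORC1 that responds to hypoxia and other stresses, had 68 counts and 3.42 FPKM in the knockout library and 125 counts and 6.20 FPKM in the wild type library. It was 2.12-fold lower (1.58 to 2.92), and its length-adjusted log2 ratio was -0.88, at percentile 2.59 of all genes. The mitophagy receptors Bnip3 and Bnip3l, by contrast, were abundant and close to 1, at 260 and 184 FPKM in the knockout library and 247 and 179 FPKM in the wild type library. Their ratios were 0.891 and 0.867. Ankrd37, an ankyrin repeat protein, had a ratio of 0.779 (0.707 to 0.857) and a length-adjusted log2 ratio of -0.03. Mxi1, a MAX-binding antagonist of MYC, had nearly equal FPKM, 25.51 in the knockout library and 25.54 in the wild type library. With a transcript of 5114 bases it lay well below the trend, with a length-adjusted log2 ratio of -0.67 at percentile 4.70.

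Of the targets that act in or through the secretory pathway, Adm stood apart from the collagen and folding enzymes. Adm, which encodes adrenomedullin, a secreted vasodilator peptide, had 210 counts and 12.9 FPKM in the knockout library and 377 counts and 22.9 FPKM in the wild type library. It was 2.09-fold lower (1.76 to 2.49), and its length-adjusted log2 ratio was -0.81, at percentile 3.01. P4ha1 and P4ha2, the catalytic subunits of collagen prolyl 4-hydroxylase, had ratios of 0.892 (0.845 to 0.941) and 0.972 (0.835 to 1.13). Ero1a, an oxidase that forms disulfide bonds in the endoplasmic reticulum, had 3383 counts in the knockout library and 3140 in the wild type library, a ratio of 0.924 (0.880 to 0.971). After length adjustment P4ha1 and Ero1a had log2 ratios of -0.41 and -0.42, while P4ha2 had 0.05.

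The direction of a member depended on scaling for many of these genes. Scaling by library totals moved the median log2 ratio of all genes to 0.24, and deposited FPKM moved it to 0.23. Across the scalings, pseudocounts, the length adjustment and, where there were any, summed similar copies, 12 members were below 0 throughout. These were Slc2a1, Gpi1, Aldoa, Aldoc, Tpi1, Gapdh, Pgk1, Ldha, Ddit4, Ankrd37, Mxi1 and Adm. Another 9 were above 0 throughout, namely Slc2a6, Hk3, Pfkl, Pfkfb4, Pkm, Pdk1, Slc16a1, Egln1 and Egln3. The remaining 15 of the 36, Hif1a, Arnt, Hk1, Hk2, Pfkp, Pfkfb3, Pgam1, Eno1, Eno2, Slc16a3, Bnip3, Bnip3l, P4ha1, P4ha2 and Ero1a, changed sign with the setting. Processed copies of glycolytic genes are common in the mouse genome, and copies listed here held few counts. Adding the 8 listed genes with similar sequence to Gapdh changed its sum by 0.403% in the knockout library and 0.233% in the wild type library, and the effect was smaller for Aldoa, Eno1 and Ldha.

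Other genes of the same pathways, taken from lists drawn up by function, mostly lay within 2-fold as well. Of 13 other glycolytic isoforms and regulators with enough counts, 0 were called in either direction. Of all genes, 6.07% were called higher and 1.74% lower. The median log2 ratio of these 13 was -0.04, or 0.11 adjusted for length. Txnip, which restrains glucose uptake, had a ratio of 0.968. The 10 pentose phosphate enzymes and the 10 genes for pyruvate entry into mitochondria had 0 calls and medians of 0.01 and -0.34. Adjusted for length, these medians were 0.15 and -0.15. Pgd, the second dehydrogenase of the pentose phosphate pathway, had 3633 counts in the knockout library and 2122 in the wild type library, a ratio of 1.47 (1.39 to 1.55). Of 8 genes of gluconeogenesis and the glycerol phosphate shuttle, 1 was higher, or 12.5%, against 6.07% of all genes. This was the mitochondrial dehydrogenase gene Gpd2, with 313 counts in the knockout library and 128 in the wild type library. Its log2 ratio was 1.06, or 0.56 adjusted for length. With the length trend removed, 0 of the 8 were at least 2-fold higher, against 2.14% of all genes. Fbp1, Fbp2 and Pck1 were listed in neither library. Txnip and Pgd were chosen after their values were seen.

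Regulators of the hypoxia-inducible factor contained 2 genes at least 2-fold higher among 17, against 6.07% of all genes, both with long transcripts. With the length trend removed, 1 of the 17 was, against 2.14% of all genes. Crebbp and Ep300 are acetyltransferases that act as coactivators of the factor and of many others. Crebbp had 71 counts in the knockout library and 9 in the wild type library, so only the knockout library met the minimum count. Crebbp was 6.23-fold higher there (3.37 to 15.4), which is 2.64 on the log2 scale and 1.88 adjusted for length. Ep300 had 381 counts in the knockout library and 126 in the wild type library, 2.58-fold higher (2.12 to 3.20), which is 1.37 on the log2 scale and 0.46 adjusted for length. The oxygen-labile subunit gene Epas1 (HIF-2 alpha) had 371 counts in the knockout library and 194 in the wild type library, and a length-adjusted log2 ratio of 0.25. Epas1 was chosen after its values were seen.

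Other genes known to be induced by hypoxia differed more widely. Of 45 with enough counts, 7 were lower by 2-fold or more in the knockout library, or 15.6%, and 2 were higher by as much, with a median log2 ratio of -0.31. Over all genes examined the shares were 1.74% lower and 6.07% higher. With the length trend removed, 7 of the 45 were lower, against 1.9% of all genes, and 0 were higher, against 2.14%. The length-adjusted median of the 45 was -0.15. Tmem45a, a transmembrane protein, had 7 counts in the knockout library and 64 in the wild type library, a log2 ratio of -3.23. Lox, which crosslinks collagen, had 49 counts in the knockout library and 151 in the wild type library, a log2 ratio of -1.82, and Mt2, a metallothionein, had 913 and 2104 counts in the same order of libraries, a log2 ratio of -1.42. These 3 had length-adjusted log2 ratios of -3.21, -2.18 and -1.01. Tmem45a and Lox reached the minimum count only in the wild type library, where they are high. Also lower were Cxcr4, Pdgfb and Plod2, at log2 ratios of -1.11, -1.07 and -1.05, or -0.93, -1.10 and -1.23 adjusted for length. Those higher were Nos2, the inducible nitric oxide synthase, at 1.22, and Slc6a6, a taurine transporter, at 1.06, which came to 0.96 and 0.47 when adjusted. These 5 were chosen after their values were seen. The classic targets Vegfa and Car9 were not called, with log2 ratios of -0.42 and -0.85, and they too were chosen after their values were seen.

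**Figure D4:**
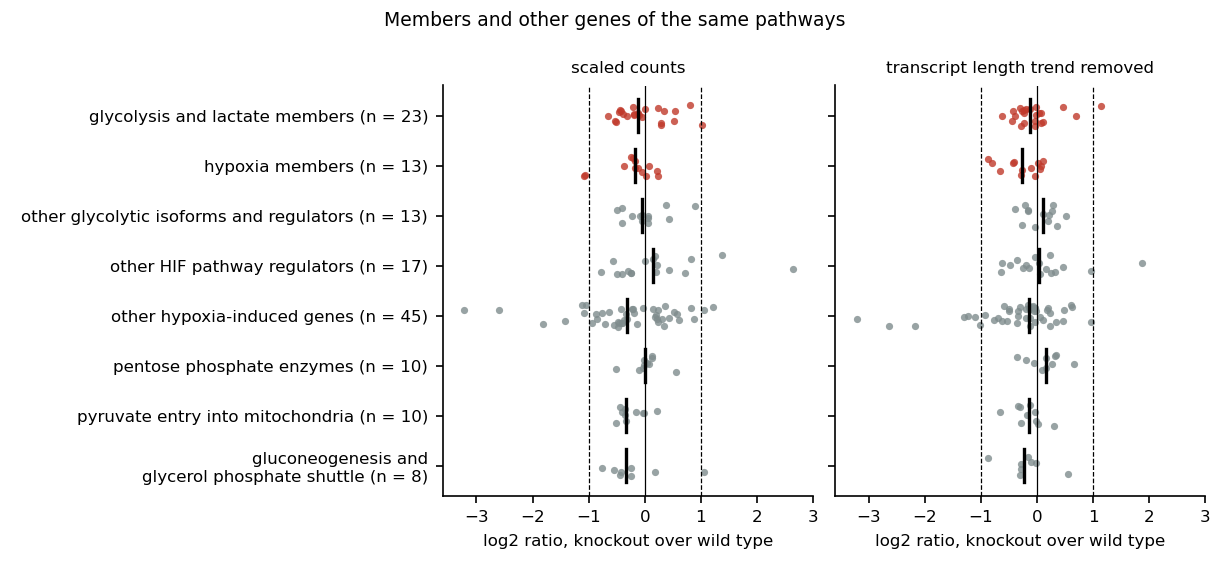
Log2 ratio of knockout over wild type for genes with at least 50 counts, as scaled counts on the left and with the length trend removed on the right, with members in red, other pathway genes in grey and black bars at each list's median; dashed lines mark 2-fold and points are spread vertically for visibility. The other hypoxia-induced genes have a tail below -1, reaching -3.23. The lists of other glycolytic isoforms, pentose phosphate enzymes and pyruvate entry lie within 2-fold, while Slc2a6 among the glycolysis and lactate members lies above 2-fold in both panels.

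Markers of macrophages and of other cell types moved between the same libraries. Of the 10 macrophage markers, 6 had log2 ratios above 0 and 4 below. At least 2-fold higher in the knockout library was 1 of them, or 10%, against 6.07% of all genes. This was Mertk, with 694 counts in the knockout library and 253 in the wild type library. Of 10 fibroblast and matrix markers with enough counts, 9 were lower by 2-fold or more in the knockout library, or 90%, against 1.74% of all genes. Of these, Col1a1, Col3a1 and Pdgfra reached the minimum of 50 counts only in the wild type library, where they are high. Lum and Pdgfrb fell short of it in both libraries. The summed level of the 12 on the list was 36.9 FPKM in the knockout library and 142 FPKM in the wild type library. Lox and Plod2 are also known as genes of such cells. The part of these cells in the lower values of hypoxia-induced genes, Adm and Ddit4 included, was not tested. The 10 carcinoma markers summed to 1.47 FPKM in the knockout library and 5.63 FPKM in the wild type library, with Cldn3 and Cldn4 listed in neither. Krt19 alone, with 0.37 FPKM in the knockout library and 4.65 FPKM in the wild type library, made that difference, and Epcam had 2 counts in the knockout library and 1 in the wild type library. Of 8 T and NK cell markers with enough counts, 3 were at least 2-fold higher in the knockout library, or 37.5%, against 6.07% of all genes. These were Klrd1, Klrb1c and Cd3d, which reached the minimum of 50 counts only in the knockout library, where they are high. Summed levels over the 12 on the list were 305 FPKM in the knockout library and 161 FPKM in the wild type library. Most of these sums came from Gzma, at 164.26 and 91.25 FPKM, and Gzmb, at 89.41 and 46.17 FPKM, in the same order. Neither gene was called, with ratios of 1.52 and 1.64. The dendritic cell list summed to 80.1 FPKM in the knockout library and 46.2 FPKM in the wild type library. Irf8, also a macrophage gene, gave 73.6 and 42.2 FPKM of these sums, and Flt3 was listed in neither library. Of the 2 dendritic cell markers with enough counts, 1 was at least 2-fold higher in the knockout library, or 50%, against 6.07% of all genes. This was Clec9a, with 74 counts in the knockout library and 13 in the wild type library, so only the knockout library met the minimum. The neutrophil list summed to 111 FPKM in the knockout library and 86.7 FPKM in the wild type library, of which S100a8 gave 106 and 83.0 FPKM, while S100a9, Mpo and Elane were at most 0.17 FPKM in the knockout library and 0.19 FPKM in the wild type library. These single markers were named after their values were seen, and none of 6 erythroid markers was listed in either library. The part of these cells in the ratios of Hk3, Slc2a6 and Pfkfb4 was not tested.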

How the data were processed

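RNA of lgmn-/- and wild type peritoneal macrophages in co-culture was sequenced on a BGISEQ-500, with 1 library of each genotype. The deposited tables give, for each gene, an estimated count and an FPKM value that the authors made with RSEM. HISAT2, Bowtie2 and mm10 are also named in the submitters' processing notes, while whether reads were counted by strand is not stated there. The tables hold only genes with a listed value. Symbols were matched for 15561 of 15605 genes.

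Estimated counts were scaled by TMM with edgeR 4.0.16 in R 4.3.3, and 1 scaled count was added before each log2 ratio. Genes with at least 50 counts in the higher library were examined (9498), with 2-fold as the size threshold. The 95% interval of a ratio comes from the exact Clopper-Pearson interval of the share of counts in the knockout library. It covers counting error only, and no molecular identifiers for PCR copies are described. A lowess trend of log2 ratio on log2 transcript length (span 0.3, statsmodels 0.14.6) was subtracted for length-adjusted values. Similar copies were sought with BLAST+ 2.17.0 at 90% identity over 300 bases. The calculations were tested on simulated data. Scaling by library totals or with DESeq2 1.42.0 was tried as an alternative, as were FPKM plus 0.1, other pseudocounts and minimum counts, 1.5-fold and the length trend.

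All members are named in the text. Among other pathway genes, those named were at most 4 a list by size of log2 ratio among those past 2-fold, except where stated; 1 gene that this rule names is not reported here. The members and lists were chosen with earlier results of these data known.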

Additional observations from a re-analysis of the deposited data

How the results depend on the processing

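Scaling by library totals gave 2 members at least 2-fold higher (Slc2a6 and Pfkfb4), 0 lower and a median log2 ratio of 0.093, against a median of 0.24 over all genes. Deposited FPKM plus 0.1 likewise gave 2 higher, 0 lower and a median of 0.094, against 0.23. On FPKM, 936 of all 9498 genes were higher and 102 lower. A pseudocount of 5 gave 0 higher, against 526 of all 9498 genes. A minimum of 200 counts left 33 members, with 0 higher and 1 lower, against 274 and 67 of all 6029 such genes. With the length trend removed, 0 were lower, against 1.9% of all genes. At 1.5-fold, 2 were higher, against 16.5% of all genes. DESeq2 size factors, a pseudocount of 0.5, a minimum of 10 counts and no minimum left the counts of 1 higher and 2 lower. The stricter minimum leaves out Slc2a6 and Ddit4 by construction, and for the other settings the cause was not tested. Slc2a6, Ddit4 and Adm have counting intervals that span 2-fold, so depth limits these calls. No paired analysis was possible because each genotype had 1 library.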
